A study of Caenorhabditis elegans with 4 samples.

Results

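The core of the Notch signalling pathway was followed in early embryos of Caenorhabditis elegans after RNAi against sig-7. The 10 genes described are the ligands lag-2 and apx-1, the receptors lin-12 and glp-1, the 5 presenilin complex genes sel-12, hop-1, aph-1, aph-2 and pen-2, and the CSL factor gene lag-1. They were taken by gene name from the authors' deposited gene table, where each name matched 1 of 37812 rows. All 10 rows were among the 10703 that the authors had tested.

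The tested embryos came from wild-type N2 worms treated with RNAi against sig-7 (2 libraries), and the control embryos from N2 worms given L4440, the empty RNAi vector (2 libraries). SIG-7 belongs to the cyclophilins, acts in the nucleus and carries an RNA-binding motif. Every library held a mixture of stages from 1 to 350 cells, and RNAi lowers a transcript without removing its gene. The deposited tables give 1 pooled value per group in FPKM, fragments per kilobase of transcript scaled to the mapped fragments, so no value per library can be shown.

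In Notch signalling a DSL ligand on the surface of a cell binds a receptor on its neighbour. The receptor is cut outside the membrane by an ADAM protease and inside it by the presenilin complex, also called gamma-secretase, and the freed intracellular part enters the nucleus and joins the CSL factor LAG-1 and the co-activator SEL-8 to switch on target genes. In the worm embryo the mother supplies the receptor GLP-1, the ligand APX-1 and the presenilin complex for the earliest inductions, such as the one that sets the fate of the ABp cell. The receptor LIN-12 and the ligand LAG-2 are made from the embryo's own genes in later inductions, and LAG-1 comes from both sources. This division into maternal and zygotic supply is background knowledge of the pathway and was not measured in these libraries.

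The knockdown itself was seen in sig-7, which was at 8.72 FPKM in sig-7 RNAi embryos and 39.8 FPKM in control embryos, with 21.9% of the control level left, in a deposited locus that covers 34.96% of its annotated span. The summed FPKM of all gene rows was 1.69-fold higher in sig-7 RNAi embryos, while the median log2 ratio of the 10098 tested genes above 0 in both groups was -0.01. With the groups set to equal totals every log2 ratio is 0.75 lower, so small rises depend on the scaling. Rises and falls below are those with a q-value (the p-value adjusted over all tested rows) under 0.05 in the authors' deposited table. By that rule 17.3% of all tested rows fell and 11.2% rose. An error for each log2 ratio was taken from the authors' deposited table as the ratio divided by its test statistic, and is called the implied standard error (SE). Whether replicate libraries stem from separate cultures is not stated in the labels, so this error may be technical.

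The 10 genes did not move together. The zygotic receptor gene lin-12 fell strongly, apx-1 and sel-12 fell less, hop-1 rose, and the remaining 6 missed the threshold. In all 3 of 10 genes fell and 1 rose, beside 17.3% falls and 11.2% rises among all tested rows. Among the 6923 tested rows with a mean FPKM within the range of the 10 genes, 17.7% fell and 12.4% rose. At these shares 1 or 2 of 10 genes would be in each class, so the counts are no result about the pathway. The median log2 ratio of the 10 was -0.07, near the -0.01 of the 10098 tested genes above 0 in both groups.

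**Figure D1:**
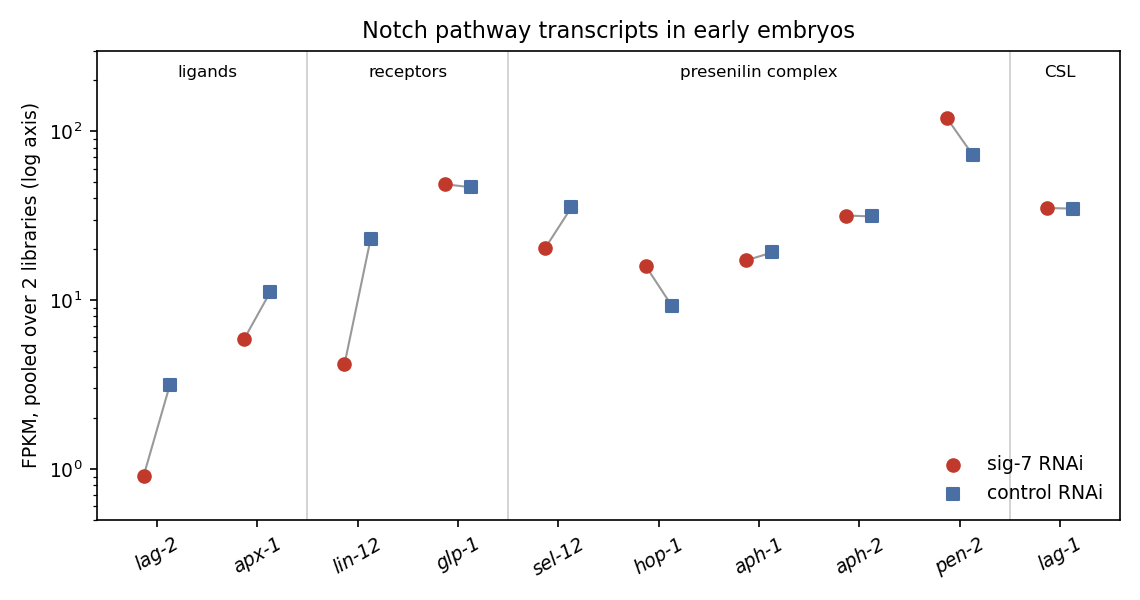
Pooled FPKM of the 10 Notch pathway genes on a log axis, with sig-7 RNAi embryos as red circles and control embryos as blue squares, joined for each gene and grouped by role. lin-12 shows the steepest difference, at 4.15 FPKM in sig-7 RNAi embryos against 22.9 FPKM in control embryos, while glp-1, aph-2 and lag-1 are nearly level.

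Of the receptors, lin-12 fell and glp-1 stayed close to its control level. lin-12 (chromosome III, 9060325 to 9071311 on ce10, minus strand) was at 4.15 FPKM in sig-7 RNAi embryos and 22.9 FPKM in control embryos, 5.52-fold lower. The authors' deposited table gives it a log2 ratio of -2.47 (implied SE 0.23) and a q listed as 0, which lies below the smallest printed value of 1.37e-14. Only 8.96% of the 10098 tested genes above 0 in both groups had a lower log2 ratio. glp-1 (chromosome III, 9092236 to 9099255, plus strand) was at 48.6 FPKM in sig-7 RNAi embryos and 46.6 FPKM in control embryos. Its log2 ratio in the authors' deposited table was 0.06 (implied SE 0.20, q = 0.968). The 95% intervals of the log2 ratios, from -2.91 to -2.02 for lin-12 and from -0.34 to 0.46 for glp-1, did not overlap. A shared scaling moves both intervals alike and leaves the distance between them.

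The mixture of receptor transcripts differed between the groups. glp-1 exceeded lin-12 by 11.7-fold in sig-7 RNAi embryos and by 2.03-fold in control embryos. lin-12 made up 7.88% of the summed receptor FPKM in sig-7 RNAi embryos and 33.0% in control embryos. FPKM is a level per length, so these genes of unequal length can be set against each other within a group. The genes lie near each other in opposite orientation, with 20924 bp between the deposited loci, and of the 7 gene rows between them 2 were tested. Neither passed (q = 0.401 for far-1 and q = 0.193 for F02A9.4 in the authors' deposited table). far-1 was at 0 FPKM in sig-7 RNAi embryos and 1.91 FPKM in control embryos. F02A9.4, the one nearer to glp-1, was at 42.4 FPKM in sig-7 RNAi embryos and 32.3 FPKM in control embryos.

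Both ligand genes were lower in sig-7 RNAi embryos, and the maternal one passed the test. apx-1 (chromosome V, 3210227 to 3222447, plus strand), the ligand that the P2 cell presents to ABp, was at 5.87 FPKM in sig-7 RNAi embryos and 11.1 FPKM in control embryos. It fell 1.90-fold, with a log2 ratio of -0.92 (implied SE 0.30) and q = 0.00931 in the authors' deposited table. lag-2, a zygotic ligand that later also acts in the gonad, was at 0.910 FPKM in sig-7 RNAi embryos and 3.13 FPKM in control embryos. Its log2 ratio of -1.78 was larger than that of apx-1, but its error was larger too (implied SE 0.84), and in the authors' deposited table its unadjusted p was 0.0329 and its q 0.0975. Their 95% intervals, from -3.42 to -0.14 for lag-2 and from -1.50 to -0.34 for apx-1, overlapped.

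The value of lag-2 is less certain than that of apx-1 for another reason. The deposited locus of lag-2 (chromosome V, 3150486 to 3202885) is 52400 bp long and is shared by 17 gene rows, while the annotated gene spans 1773 bp in WBcel235, a later build used here for lengths and strands only. Of the other 3 tested genes in that locus, Y73C8B.1 and Y73C8B.3 fell and Y73C8B.2 was at 14.6 FPKM in sig-7 RNAi embryos and 14.3 FPKM in control embryos. apx-1 is alone in its locus, 7341 bp further along. In the authors' deposited gene table apx-1 is marked as tested, but its only isoform is marked as not tested with the same p-value, a state it shares with 94 of 9585 tested genes that have a lone isoform.

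The presenilin complex showed both directions. sel-12 and hop-1 encode the alternative presenilins, the catalytic subunit, and they moved in opposite ways. sel-12 (chromosome X, 915872 to 918157, plus strand), the major presenilin gene, was at 20.3 FPKM in sig-7 RNAi embryos and 35.3 FPKM in control embryos, 1.74-fold lower, with a log2 ratio of -0.80 (implied SE 0.24) and q = 0.00436 in the authors' deposited table. hop-1 (chromosome I, 4208594 to 4210342, minus strand), which can partly replace it, was at 15.9 FPKM in sig-7 RNAi embryos and 9.26 FPKM in control embryos, 1.72-fold higher, with a log2 ratio of 0.78 (implied SE 0.29) and q = 0.0263 in the authors' deposited table. Their 95% intervals, from -1.26 to -0.33 and from 0.22 to 1.35, did not overlap.

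sel-12 exceeded hop-1 by 1.27-fold in sig-7 RNAi embryos and by 3.82-fold in control embryos, a 2.995-fold change of the ratio that no common scaling affects. hop-1 made up 44.0% of the summed presenilin FPKM in sig-7 RNAi embryos and 20.8% in control embryos. The sum itself was 36.3 FPKM in sig-7 RNAi embryos and 44.6 FPKM in control embryos. sel-12 is X-linked, and 34.4% of the tested X-linked rows fell, against 17.3% of all tested rows. The part of the X chromosome in its fall was not tested. With the groups scaled to equal totals the log2 ratio of hop-1 was 0.030, and with the median of the tested genes set to 0 it was 0.79. Its rise therefore depends on the scaling chosen.

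**Figure D2:**
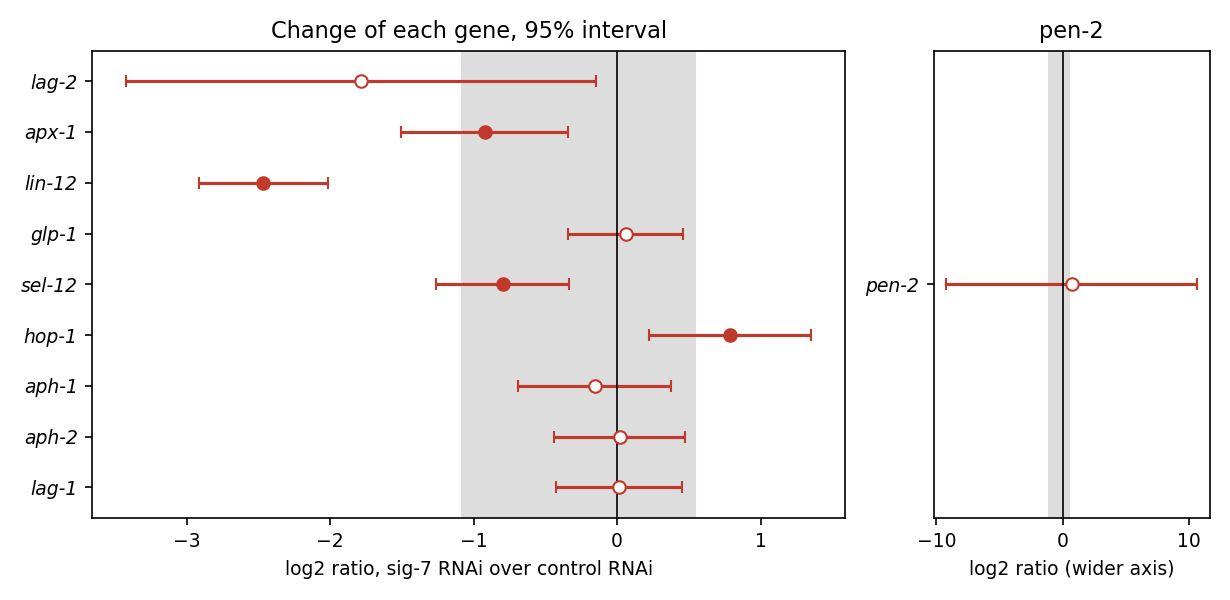
Log2 ratio of FPKM in sig-7 RNAi over control embryos for each Notch pathway gene, with the 95% interval from the implied SE and filled points for q under 0.05. The grey band spans the middle of the 10098 tested genes above 0 in both groups (25th to 75th percentile, -1.08 to 0.54). pen-2 has its own wider axis because its interval runs from -9.21 to 10.7.

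The other subunits did not pass the test. aph-1, which encodes a scaffold subunit needed for assembly of the complex, was at 17.2 FPKM in sig-7 RNAi embryos and 19.1 FPKM in control embryos. Its log2 ratio in the authors' deposited table was -0.16 (implied SE 0.27, q = 0.801). aph-2, the nicastrin gene, was at 31.7 FPKM in sig-7 RNAi embryos and 31.3 FPKM in control embryos, with a log2 ratio of 0.02 (implied SE 0.23, q = 1.00 in the authors' deposited table). The 95% intervals, from -0.69 to 0.38 for aph-1 and from -0.44 to 0.47 for aph-2, overlapped that of apx-1, from -1.50 to -0.34.

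pen-2, the smallest subunit, was the most abundant of the 10 transcripts, at 119.9 FPKM in sig-7 RNAi embryos and 72.2 FPKM in control embryos. The difference is 1.66-fold, close to the 1.72-fold of hop-1, yet in the authors' deposited table its unadjusted p was 0.885. Its implied SE was 5.07 on the log2 scale, against 0.20 to 0.84 for the other 9 genes. The deposited locus of pen-2 spans 1320020 bp and holds 286 gene rows, so that whether pen-2 differs cannot be read from its q.

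lag-1, the gene of the DNA-binding CSL factor, did not pass the test. It was at 35.1 FPKM in sig-7 RNAi embryos and 34.8 FPKM in control embryos, with a log2 ratio of 0.01 (implied SE 0.22, q = 1.00 in the authors' deposited table) and a 95% interval from -0.43 to 0.45. Its partner gene sel-8 was at 28.998 FPKM in sig-7 RNAi embryos and 28.55 FPKM in control embryos, but its row failed in the authors' test and carries no error.

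Within the near-equal totals of aph-2 and lag-1 the isoforms were divided differently. Both genes have a pair of isoforms in the deposited tables, here called first and second by their identifiers. The first aph-2 isoform held 58.7% of the gene's FPKM in sig-7 RNAi embryos and 82.4% in control embryos. The second was at 13.1 FPKM in sig-7 RNAi embryos and 5.52 FPKM in control embryos (unadjusted p = 0.0184, q = 0.0634 in the authors' deposited isoform table). The first lag-1 isoform held 47.1% in sig-7 RNAi embryos and 65.2% in control embryos, and its isoforms had q = 0.292 and q = 0.237 in the authors' deposited isoform table. Neither gene had an isoform that passed the test. Among 344 genes with 2 tested isoforms the median shift was 7.34 percentage points, and 86.3% of them shifted less than aph-2 and 75.3% less than lag-1.

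**Figure D3:**
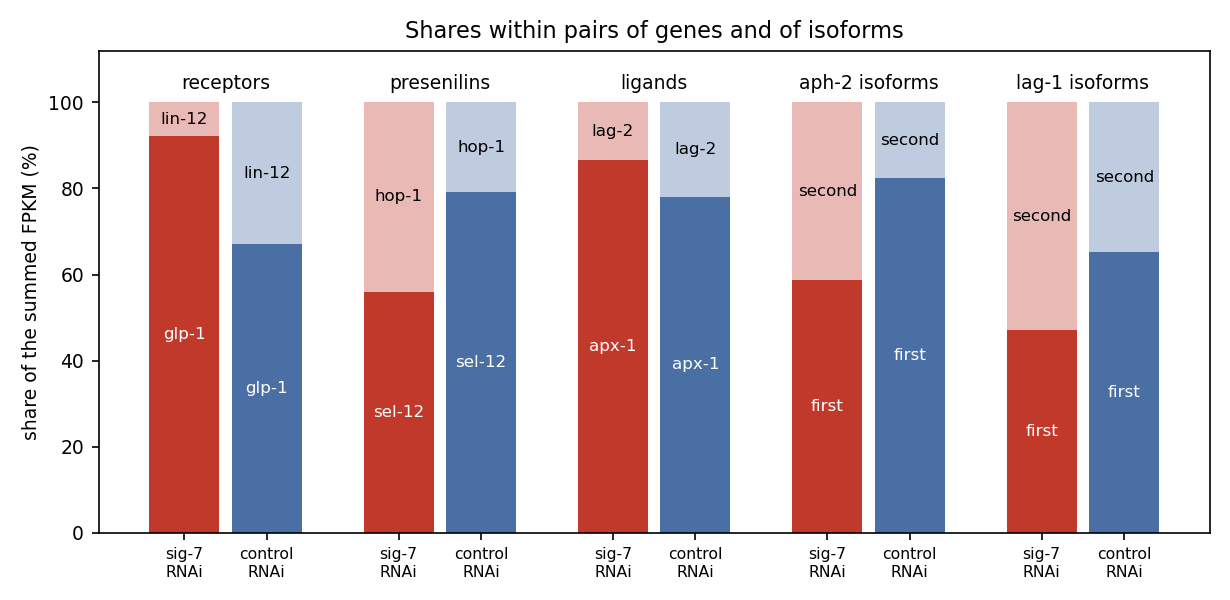
Shares of the summed FPKM, in percent, within pairs of Notch pathway genes and within the isoforms of aph-2 and lag-1, with sig-7 RNAi embryos left of control embryos. The share of lin-12 is smaller and that of hop-1 larger in sig-7 RNAi embryos.

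Set side by side by supply, the zygotic genes were the lowest and the maternal genes were spread around 0. The 2 zygotic genes, lin-12 and lag-2, had log2 ratios of -2.47 and -1.78, and 1 of them fell. The 7 maternal genes ranged from -0.92 to 0.78 with a median of 0.02, and 2 of them fell and 1 rose. That is 28.6% falls and 14.3% rises among the maternal genes, beside 17.3% and 11.2% of all tested rows. Counts from so few genes are no result about the classes. Summed over the genes, the zygotic pair was at 5.06 FPKM in sig-7 RNAi embryos and 26.1 FPKM in control embryos, and the 7 maternal genes were at 259.4 FPKM in sig-7 RNAi embryos and 224.9 FPKM in control embryos, of which pen-2 alone gave 119.9 and 72.2 FPKM. The difference between these classes of 2 and 7 genes was not tested.

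Longer lists showed how other genes of both kinds stood in the same libraries. Of 24 early zygotic genes 9 fell and 2 rose, with a median log2 ratio of -0.39. That is 37.5% falls and 8.33% rises, beside 17.3% and 11.2% of all tested rows. sdz-28, in a locus of 9 gene rows, was at 10.2 FPKM in sig-7 RNAi embryos and 99.5 FPKM in control embryos, and nhr-25, a nuclear hormone receptor gene of the epidermis, was at 2.81 FPKM in sig-7 RNAi embryos and 15.2 FPKM in control embryos. The 2 rises were those of med-2 and hnd-1, named after their values were seen. med-2 was at 3.91 FPKM in sig-7 RNAi embryos and 1.08 FPKM in control embryos. hnd-1 was at 60.7 FPKM in sig-7 RNAi embryos and 35.2 FPKM in control embryos, and its log2 ratio was 0.030 with equal totals. The other 13 early zygotic genes were not called, and 10 of the 24 log2 ratios were above 0. Of 24 maternal cell fate and eggshell genes 1 fell (4.17%) and 2 rose (8.33%), with a median of 0.26. Among them nos-2, a Nanos gene of the germline, rose 1.70-fold, and skn-1, which specifies the EMS cell, fell 1.65-fold, although its deposited locus covers 14.3% of its annotated span.

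Markers of differentiating tissues were low together with lin-12. All 6 body wall muscle markers fell, summing to 6.34 FPKM in sig-7 RNAi embryos and 22.5 FPKM in control embryos, with lev-11 and unc-27 at 0.586 and 0.646 FPKM in sig-7 RNAi embryos. Muscle and mesoderm fate genes of the early zygotic list, named after their values were seen, were mixed. hlh-1 was at 22.4 FPKM in sig-7 RNAi embryos and 14.9 FPKM in control embryos (q = 0.0885 in the authors' deposited table). hnd-1 rose, and ceh-51 fell, at 3.85 FPKM in sig-7 RNAi embryos and 16.7 FPKM in control embryos. Of 5 epidermis markers 4 fell, with sums of 55.0 FPKM in sig-7 RNAi embryos and 264.2 FPKM in control embryos, and of 6 intestine markers 3 fell, with sums of 8.62 FPKM in sig-7 RNAi embryos and 28.98 FPKM in control embryos. Among all tested rows 17.3% fell. All 6 intestine markers had log2 ratios below 0. Of the 3 not called, elt-7 had q = 0.0916 in the authors' deposited table, and ges-1 and act-5 lie in loci of 141 and 172 gene rows. In loci that large a missing call says little. By log2 ratio the 2 largest called falls were those of lev-11 and unc-27 among the muscle markers, of elt-3 and noah-1 among the epidermis markers and of elt-2 and ifb-2 among the intestine markers. The deposited loci of lev-11 and elt-3 cover 17.2% and 15.6% of the annotated spans. The part of these cells and of the mixture of stages in the fall of lin-12 was not tested, and in bulk RNA fewer cells of a type and less RNA per cell cannot be told apart. Markers of sperm and of adult yolk were near 0 in both groups, at no more than 0.412 FPKM in sig-7 RNAi embryos and 0.257 FPKM in control embryos.

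The rest of the pathway was examined in a list of 61 further genes, of which 60 were in the table and 48 were tested. Of the 48, 7 fell and 2 rose, and the median log2 ratio was 0.00. That is 14.6% falls beside 17.3% of all tested rows, and 4.17% rises beside 11.2%. The counts by role below stand beside the same 17.3% and 11.2%. They come from few genes each and are no result about a role.

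Among the other DSL ligand genes 1 of 4 tested fell. dsl-6 was at 0.864 FPKM in sig-7 RNAi embryos and 5.96 FPKM in control embryos, a log2 ratio of -2.79 (implied SE 0.49, q = 2.14e-07 in the authors' deposited table). dsl-2 had the highest level of the group, 65.0 FPKM in sig-7 RNAi embryos and 123.6 FPKM in control embryos (q = 0.592 in the authors' deposited table). dsl-1 and dsl-3, named after their values were seen, were at 3.55 and 2.65 FPKM in sig-7 RNAi embryos, against 24.7 and 40.6 FPKM in control embryos, with q = 0.695 and q = 0.525 in the authors' deposited table. Those 3 genes share 1 locus of 196 gene rows. arg-1, dsl-4, dsl-5 and dsl-7 were not tested, and none of these exceeded 0.217 FPKM. Of the 5 DOS co-ligand genes only osm-7 was tested, at 0.421 FPKM in sig-7 RNAi embryos and 0.667 FPKM in control embryos, in a locus of 172 gene rows.

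Of 4 genes that act in the cut at the cell surface 1 fell. The ADAM protease gene sup-17 was not called and stood at 49.4 FPKM in sig-7 RNAi embryos and 54.04 FPKM in control embryos, with a log2 ratio of -0.13 (implied SE 0.21, q = 0.773 in the authors' deposited table). tsp-14, a tetraspanin gene that promotes Notch signalling in the worm, was at 0.987 FPKM in sig-7 RNAi embryos and 5.28 FPKM in control embryos and fell 5.35-fold (q = 9.21e-08 in the authors' deposited table), although its locus covers 38.03% of its annotated span. The more abundant tetraspanin gene tsp-12, named after its values were seen, was not called. It was at 51.9 FPKM in sig-7 RNAi embryos and 37.4 FPKM in control embryos (q = 0.131 in the authors' deposited table). The sperm presenilin gene spe-4 was at 0.0169 FPKM in sig-7 RNAi embryos and 0.0114 FPKM in control embryos and was not tested.

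Genes for receptor folding, traffic and turnover went both ways. Of 9 tested, 2 fell and 1 rose. epn-1, the epsin gene of endocytosis, was at 27.97 FPKM in sig-7 RNAi embryos and 61.99 FPKM in control embryos, 2.22-fold lower (q = 3.09e-05 in the authors' deposited table). sel-2, a BEACH-domain gene of receptor traffic, was at 17.9 FPKM in sig-7 RNAi embryos and 30.7 FPKM in control embryos, 1.71-fold lower (q = 0.00117 in the authors' deposited table). alx-1, an ALIX homologue, was at 50.9 FPKM in sig-7 RNAi embryos and 33.6 FPKM in control embryos, 1.52-fold higher (q = 0.0273 in the authors' deposited table), in a row that also names a 21U RNA, and its log2 ratio of 0.60 was -0.15 with equal totals. Its isoforms were called in both directions, 1 at 32.1 FPKM in sig-7 RNAi embryos and 16.5 FPKM in control embryos and another at 1.64 FPKM in sig-7 RNAi embryos and 6.86 FPKM in control embryos (q = 0.00971 and q = 0.0243 in the authors' deposited table). sel-9, a cargo receptor gene, had the highest level, at 211.5 FPKM in sig-7 RNAi embryos and 134.1 FPKM in control embryos, in a locus of 288 gene rows. Of 5 suppressors of presenilin, chromatin and transcription genes whose loss relieves sel-12 mutants, spr-2 rose, at 91.6 FPKM in sig-7 RNAi embryos and 48.7 FPKM in control embryos (1.88-fold higher, q = 0.00178 in the authors' deposited table). With equal totals the log2 ratio of spr-2, 0.91 as deposited, was 0.16. One spr-2 isoform was called and another was not (q = 0.000883 and q = 0.452 in the authors' deposited isoform table). spr-3, alone in its locus, was at 28.9 FPKM in sig-7 RNAi embryos and 29.7 FPKM in control embryos, and spr-1, spr-4 and spr-5 lie in loci of 288, 150 and 281 gene rows.

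**Figure D4:**
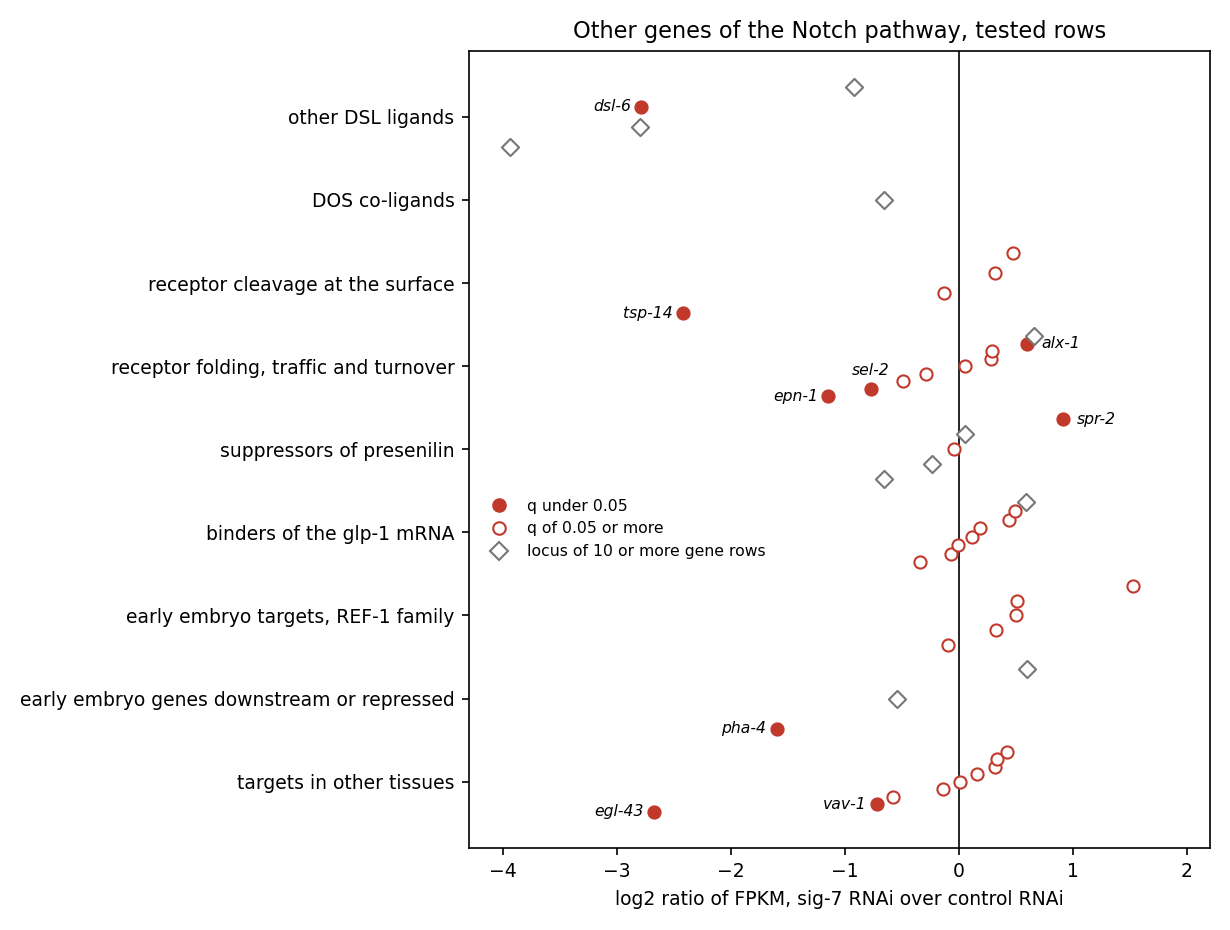
Log2 ratio of FPKM in sig-7 RNAi over control embryos for the 48 tested genes of the wider Notch list, by role, with filled points and names for q under 0.05. Diamonds mark the 11 genes in loci of 10 or more gene rows, none of which passed the authors' test.

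RNA-binding genes that act on the glp-1 message gave no calls. None of 8 passed the test in the authors' deposited Cuffdiff table, and 1 was higher at an unadjusted p under 0.05. The most abundant, pos-1, was at 411.9 FPKM in sig-7 RNAi embryos and 274.2 FPKM in control embryos, in the same large locus as sel-9.

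Of the transcriptional targets, no REF-1 family gene passed the test. These bHLH repressor genes are direct targets of Notch in the early embryo. ref-1 was at 11.4 FPKM in sig-7 RNAi embryos and 12.2 FPKM in control embryos, with a log2 ratio of -0.10 (implied SE 0.29, q = 0.940 in the authors' deposited table). None of the 5 tested members passed the authors' Cuffdiff test, and 1 was higher at an unadjusted p under 0.05. That gene, hlh-27, named after its values were seen, was at 1.78 FPKM in sig-7 RNAi embryos and 0.617 FPKM in control embryos (q = 0.0523 in the authors' deposited table), and close paralogues in this family may share reads. The tested members besides ref-1 were at 0.881 to 2.67 FPKM in sig-7 RNAi embryos and 0.617 to 1.88 FPKM in control embryos. Their implied SEs were 0.51 to 0.73, so a missing call there says little. Among all tested rows 17.3% fell and 11.2% rose.

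pha-4, a FoxA gene that specifies the pharynx and responds to GLP-1 signalling in the AB lineage, was at 8.87 FPKM in sig-7 RNAi embryos and 26.9 FPKM in control embryos and fell 3.03-fold (q = 1.74e-08 in the authors' deposited table), in a locus that covers 38.1% of its annotated span. The T-box genes tbx-37 and tbx-38, which are kept off by this signal in the ABp lineage, lie in the same locus as pen-2, and neither passed the test. Of 9 genes linked to Notch signalling in other tissues 2 fell (22.2%, beside 17.3% of all tested rows), and whether Notch switches them on was not tested. egl-43, a zinc finger gene of the anchor cell, was at 0.765 FPKM in sig-7 RNAi embryos and 4.90 FPKM in control embryos, and vav-1, an exchange factor gene, was at 12.4 FPKM in sig-7 RNAi embryos and 20.6 FPKM in control embryos (q = 0.000141 and q = 0.0114 in the authors' deposited table). The call of vav-1 was absent at q under 0.01 and from the authors' isoform and TSS group tables. Its main isoform, at 11.5 FPKM in sig-7 RNAi embryos and 20.1 FPKM in control embryos, was marked LOWDATA there and was not tested. The other isoform was tested and did not pass (q = 0.853 in the authors' deposited isoform table). The main isoform of egl-43, at 0.523 FPKM in sig-7 RNAi embryos and 3.68 FPKM in control embryos, was also marked LOWDATA and not tested. Its called isoform was at 0.242 FPKM in sig-7 RNAi embryos and 1.22 FPKM in control embryos (q = 0.0283 in the authors' deposited isoform table). With 1 FPKM added to both groups the log2 ratios of dsl-6, tsp-14 and egl-43 were smaller in size, at -1.90, -1.66 and -1.74. lst-3, the most abundant of the 9 genes linked to Notch signalling in other tissues, was at 135.7 FPKM in sig-7 RNAi embryos and 107.5 FPKM in control embryos (q = 0.230 in the authors' deposited table).

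Whether a Notch pathway gene could pass the test went with the locus it was deposited in. Of tested rows that were alone in their locus 35.9% passed the authors' test, against 0.117% of the 1703 rows in loci of 100 or more gene rows (2 rows). Over tested rows above 0 in both groups, the median implied SE was 0.29 in rows alone in their locus and 4.66 in those large loci. The median size of the log2 ratio was 0.65 in both. Of the genes described here 7 were alone in their locus, lag-1 shared its locus with 3 other gene rows, and lag-2 and pen-2 lay in loci of 17 and 286. Among the 7, 3 fell and 1 rose, beside 20.4% falls and 15.5% rises among all tested rows alone in their locus. In loci of 10 or more gene rows 2.00% of all tested rows passed and none of the 11 genes of the wider list did (q from 0.525 to 1.00 in the authors' deposited table), and for pen-2, dsl-1, dsl-2, dsl-3, osm-7, sel-9, spr-1, spr-4, spr-5, pos-1, tbx-37 and tbx-38 a missing call says little about the transcript.

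**Figure D5:**
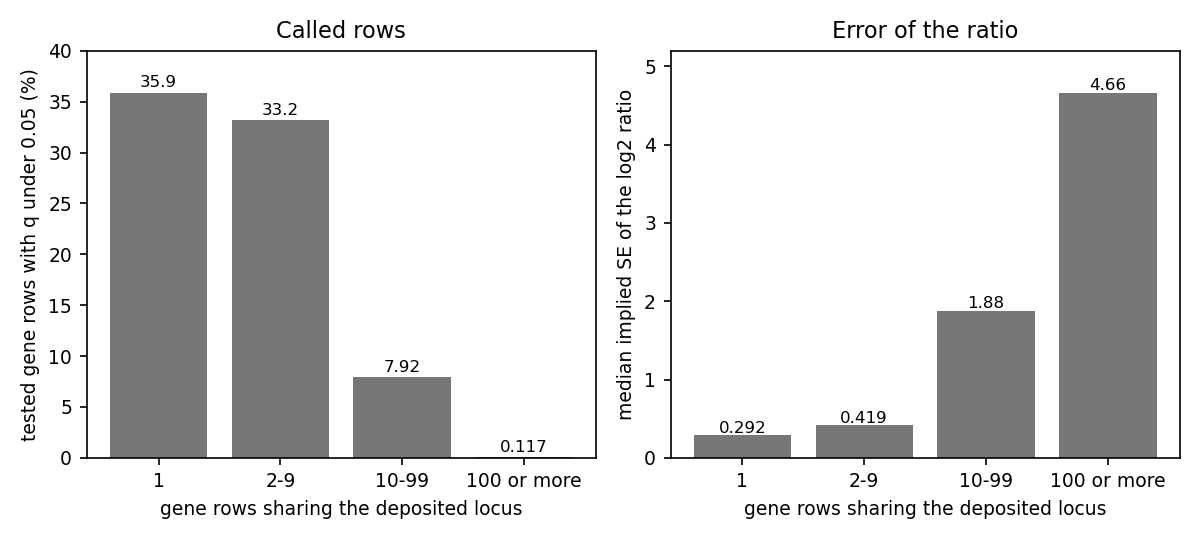
Share of tested gene rows with q under 0.05, in percent (left), and median implied SE of the log2 ratio (right) in the comparison of sig-7 RNAi with control embryos, by the number of gene rows that share a deposited locus. The share called is 35.9% for rows alone in their locus and 0.117% in loci of 100 or more rows, where the median implied SE is 4.66.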

How the data were processed

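Total RNA of 4 libraries of mixed early embryos (2 of sig-7 RNAi, 2 of control RNAi, grouped by sample title) was depleted of ribosomal RNA and made into stranded libraries, per the labels' protocols. Per the submitters' processing notes, TopHat2, Cuffdiff (version 2.0.2), Cufflinks (version 2.1.1) and FastQC were used with build ce10. No source used here names the parameters, the annotation or the strand setting. The authors deposited FPKM values pooled per group, log2 ratios of sig-7 RNAi to control, and p-values and q-values from Cuffdiff, per the file headers. The deposited test statistic is a score, and its 2-sided normal p equalled the deposited p to within 2.69e-06 in 10098 rows. Cuffdiff forms this statistic as the log ratio over its standard error, so the implied SE is the deposited log2 ratio over the statistic, and 95% intervals are the ratio ± its normal multiple. It holds whatever error Cuffdiff modelled, and the depth of each library is unknown.

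No test was added to the authors' own, and the replicate spread enters only through it. The counting code was tested on simulated data. Positions are deposited ones on ce10, counted from base 1; spans and strands came from Ensembl release 115 by gene name. Of 147 listed names 144 were found. Members, lists and classes were chosen with earlier results of these data known. By rule the text names all members, every called gene of the wider list, the most abundant gene of each role, the 2 largest called changes of each context list and the 3 genes nearest to each receptor. Alternatives were a stricter q, an FPKM floor, pseudocounts, scalings, and the isoform and TSS group tables. Python 3.11.15 and pandas 2.3.3 were used.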

Additional observations from a re-analysis of the deposited data

How the results depend on the processing

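The members that fell kept their calls at q under 0.01 and with a floor of 1 FPKM, and in the isoform and TSS group tables lin-12 and sel-12 kept theirs while apx-1 was not tested. At q under 0.01 the number of members that rose was 0 in place of 1 (Cuffdiff, with 1 at an unadjusted p under 0.05), those of the wider list 1 rise in place of 2 and 6 falls in place of 7, and that of all tested genes 719 in place of 1195. With a pseudocount of 1 FPKM the log2 ratios were -1.11 for lag-2, -1.90 for dsl-6, -1.66 for tsp-14 and -1.74 for egl-43. With both groups scaled to equal total FPKM the median of the members was -0.83, and the log2 ratios were -2.54 for lag-2, -1.68 for apx-1, -3.22 for lin-12, -0.69 for glp-1, -1.55 for sel-12, 0.030 for hop-1, -0.91 for aph-1, -0.74 for aph-2, -0.023 for pen-2 and -0.74 for lag-1, while alx-1, called higher, was at -0.15; these shifts follow from the scaling itself. With the median of the tested genes above 0 in both groups set to 0, all 20 log2 ratios examined kept their sign and stayed within 1.5-fold. Restriction to rows alone in their locus or to loci of fewer than 10 gene rows, chosen after the data were seen, left the counts of the members at 3 and 1. No paired analysis was possible because the files hold pooled values, and for the same reason no replicate could be left out.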

Other observations

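By distance in the plane of the log2 FPKM of both groups, over 9912 other tested genes with a single name, the genes nearest to glp-1 were mdt-9, F56C9.10 and K08E3.5, all within 0.0344, and those nearest to lin-12 were F40G9.6, lipl-7 and fbxb-95, all within 0.149. With 2 pooled values per gene this likeness says only that level and ratio are close. F40G9.6 was at 4.30 FPKM in sig-7 RNAi embryos and 21.6 FPKM in control embryos, and lipl-7 at 4.43 FPKM in sig-7 RNAi embryos and 21.9 FPKM in control embryos. In the authors' deposited table q was 0.604 for F40G9.6, whose locus holds 85 gene rows, and 3.92e-14 for lipl-7, which is alone in its locus.

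Among tested genes above 0 in both groups and at least 2-fold apart, 69.1% of those alone in their locus passed the authors' test. The share was 61.9% in loci of 2 to 9 gene rows, 19.8% in loci of 10 to 99 and 0.199% in loci of 100 or more (1 of 503). The median FPKM of the tested rows was 12.3 for rows alone in their locus and 11.6 in loci of 100 or more.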
